A study of Mus musculus with 4 samples.

Results

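Oxidative phosphorylation is the process by which mitochondria pass electrons from NADH and succinate along complexes I to IV of the respiratory chain to oxygen and use the resulting proton gradient to make ATP in the ATP synthase, also called complex V. The genes described here are those of the nuclear-encoded subunits of these complexes. They were chosen by name from the array's annotation: symbols that start with Nduf (complex I), Uqcr (complex III) or Atp5 (ATP synthase), the genes Sdha to Sdhd (complex II), Cox genes of families 4 to 8 (complex IV), Cyc1 and Cycs, without Cox8b. The rule found 89 of 18820 measured genes, read by 123 of 35556 probe sets. They were grouped by known product, except that Ndufa4, now known as a subunit of complex IV, was kept with complex I by its name. The groups held 35 genes of complex I, 4 of complex II, 9 of complex III with cytochrome c and 15 of complex IV. A further 17 were of the ATP synthase, and 9 were assembly factors or accessory genes that the name rule takes in.

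The study infused short-chain fatty acids into the cecum of male C57Bl/6J mice, 16 to 17 weeks old, and profiled liver RNA after 6 h. All mice had eaten a semi-synthetic diet with palm oil for 6 weeks and carried a cecal catheter. The control pool came from 6 mice given phosphate-buffered saline, the acetate pool from 6 mice given sodium [1-13C]acetate, the propionate pool from 6 mice given sodium [2-13C]propionate and the butyrate pool from 4 mice given sodium [2,4-13C2]butyrate; the acid solutions were 0.3 M and gave 2.4 mmol/h/kg. Each pool was hybridised to 1 array, so every difference below is that between a pair of arrays, has no replicate check and carries no p-value or error.

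The liver runs on oxidative phosphorylation, which supplies the ATP for gluconeogenesis, urea synthesis and lipid handling, and short-chain fatty acids are themselves oxidised there through acetyl-CoA or succinyl-CoA. Most subunits are encoded by a single nuclear gene that every tissue uses. The c subunit of the ATP synthase is encoded by several genes (Atp5g1, Atp5g2 and Atp5g3), and in complex IV subunits 4, 6a, 6b, 7a, 7b and 8 have isoforms, with forms typical of heart and skeletal muscle (Cox6a2, Cox7a1 and, in rodents, Cox8b) beside the forms found broadly, liver included (Cox6a1, Cox7a2 and Cox8a). In bulk RNA, fewer cells of a type and less RNA per cell cannot be told apart.

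The labelled tissue was borne out by its markers. All 10 measured hepatocyte markers lay at or above the level floor, which is the median of all genes' mean log2 values (5.55). Their summed level, to which the most abundant transcripts add most, stayed between 16.25 and 16.27 on the log2 scale. Log2 ratios of the markers to control ran from -0.16 (Hnf4a with butyrate) to 0.078 (Cps1 with butyrate). Of the 89 oxidative phosphorylation genes, 83 lay at or above that floor. The other 6 were Cox4i2, Cox6b2, Cox7b2, Cox8c and Ndufa4l2, which are isoforms or paralogs of other tissues, and the assembly factor Ndufaf5.

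Across the 4 pools these genes stayed close to constant. The range of a gene, its highest minus its lowest log2 value over the pools, had a median of 0.14, against 0.21 over all genes. At or above the floor the median range was 0.13 for the 83 members and 0.18 for all genes. Of the 89, 12 differed by at least 1.2-fold (0.26 on the log2 scale) between some pair of pools, against 34.5% of all genes and 27.4% of the genes at or above the floor. Of the 89, Cox6a2 and Cox7a1 alone differed by at least 1.5-fold (0.58), against 4% of all genes and 3.36% of those at or above the floor. Just short of 1.2-fold lay Uqcrfs1 (0.259) and Uqcrh (0.251), and just past it Ndufaf3 (0.263) and Atp5e (0.264). At the quiet end, Atp5d, the delta subunit of the ATP synthase, stood at 12.59 in control and at 12.57, 12.57 and 12.58 with acetate, propionate and butyrate (the order used for all values below), and the catalytic beta subunit Atp5b at 12.37, 12.41, 12.38 and 12.35.

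**Figure D1:**
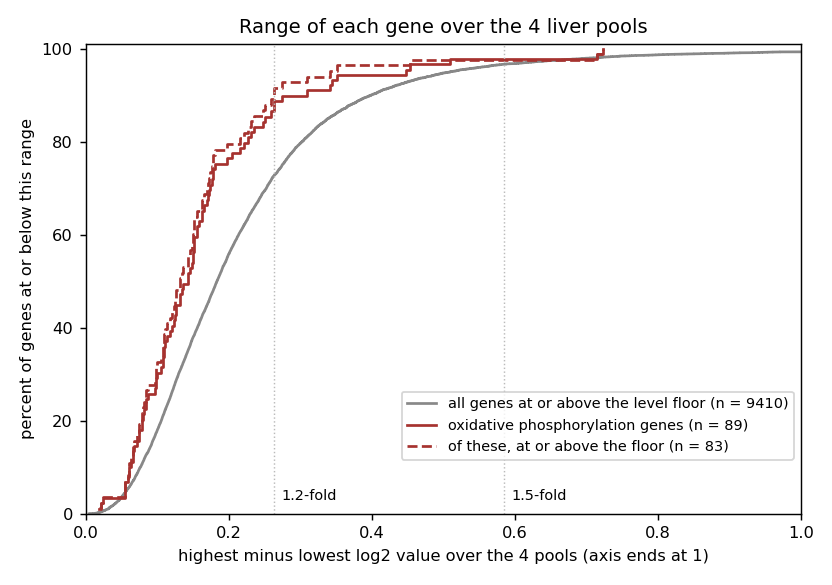
Cumulative percent of genes (vertical axis) with a range over the 4 pools at or below the value on the horizontal axis, in log2 units, for the 89 oxidative phosphorylation genes, for the 83 of them at or above the level floor and for all 9410 genes at or above it. The red curves lie to the left of the grey curve over most of the axis, with 12 of 89 members beyond 1.2-fold against 27.4% of the genes at or above the floor, and end with Cox7a1 and Cox6a2 beyond 1.5-fold.

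The 12 genes are counted here by role, beside 34.5% of all genes and 27.4% of genes at or above the floor past 1.2-fold. Among 74 subunits of the 5 complexes other than isoforms of muscle or other tissues, 4 passed 1.2-fold between some pair of pools, namely Atp5e, Ndufb8, Ndufs5 and Uqcr11. Among the 7 isoforms and paralogs of muscle and other tissues, 5 did so (Cox4i2, Cox6a2, Cox7a1, Cox8c and Ndufa4l2). Of 8 assembly and accessory genes 3 did (Ndufaf2, Ndufaf3 and Ndufaf7), which is near the share over all genes. Of these 12, Cox4i2, Cox8c and Ndufa4l2 lay below the floor, where a ratio compares values near background and a larger share of genes passes 1.2-fold.

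Against the control pool, the median log2 ratio of the 89 genes was 0.022 with acetate, -0.012 with propionate and 0.0015 with butyrate. Over all genes it was 0.0020, -0.0075 and -0.0029. With acetate 51 of the 89 lay above control, with propionate 42 and with butyrate 45, against 50.5%, 47.8% and 49.0% of all genes. Of the 83 members at or above the floor, 47, 39 and 44 lay above control (56.6%, 47.0% and 53.0%). Over all genes at or above the floor these shares were 46.2%, 39.2% and 48.7%, with median ratios of -0.011, -0.034 and -0.0036. The 3 ratios share the same control array.

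With acetate, 3 of the 89 genes differed from control by at least 1.2-fold, against 12.2% of all genes, and none by 1.5-fold, against 1.19%. With propionate 3 passed 1.2-fold, against 13.3% of all genes, and none 1.5-fold, against 1.26%. With butyrate 4 passed 1.2-fold, against 11.9%, and 1 passed 1.5-fold, against 1.34%. At or above the floor, 1 of 83 members was higher and 1 lower past 1.2-fold with acetate, against 438 and 495 of 9410 genes. With propionate 1 was higher and 1 lower, against 428 and 531, and with butyrate 0 and 2, against 458 and 351. Among the 74 subunits without isoforms the counts past 1.2-fold were 2 with acetate, 0 with propionate and 0 with butyrate. Counts at this step turn on small distances: Uqcrfs1 with acetate (0.259) and Ndufb8 with butyrate (-0.262) lay just short of it.

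**Figure D2:**
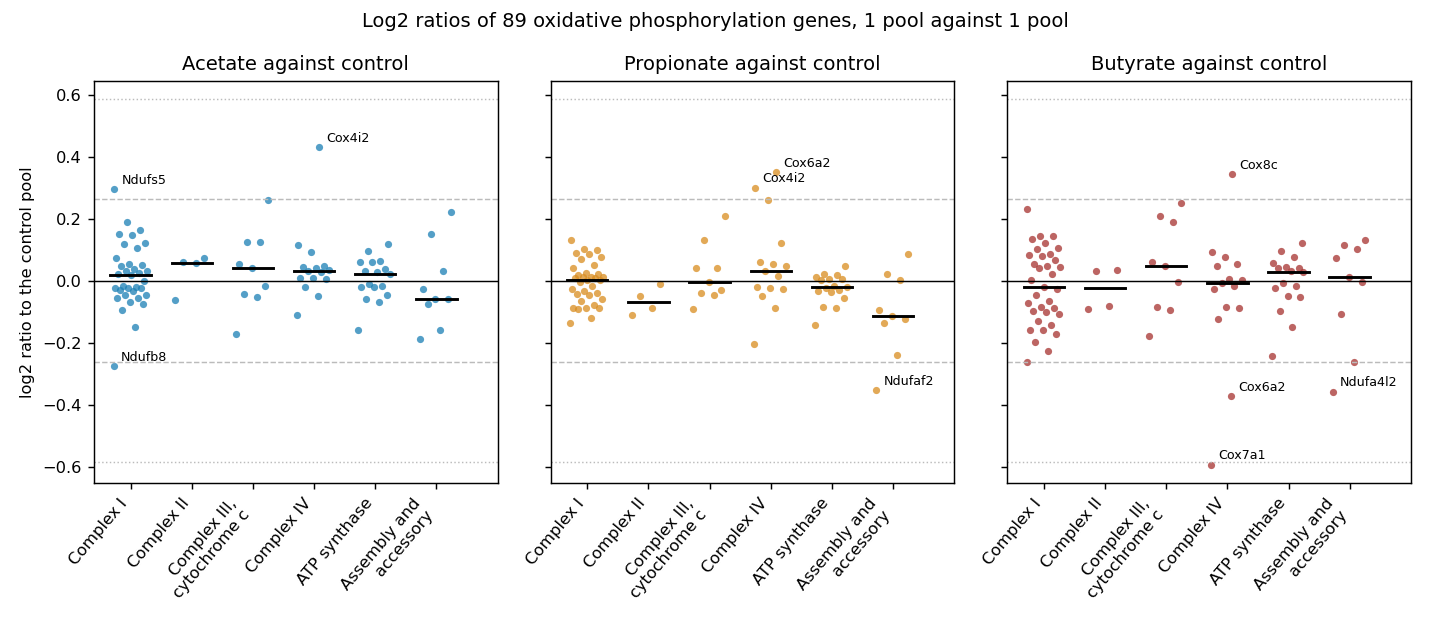
Log2 ratio to the control pool (vertical axis) of each of the 89 genes, by complex, for the acetate, propionate and butyrate pools. Points are genes, black bars are medians, dashed lines mark 1.2-fold and dotted lines 1.5-fold; named genes lie beyond 1.2-fold, and only Cox7a1 with butyrate lies beyond 1.5-fold.

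Complex I takes electrons from NADH. The 35 genes counted with it, Ndufa4 among them, had median log2 ratios of 0.020, 0.0032 and -0.020 with acetate, propionate and butyrate. Of these genes 19, 19 and 17 lay above control. The widest range was that of Ndufs5, a small subunit of the intermembrane-space side, at 7.53 in control, 7.83 with acetate, 7.54 with propionate and 7.38 with butyrate. Acetate stood apart as the high pool, 1.23-fold above control and 1.37-fold above butyrate. Ndufb8, a subunit of the membrane arm that is often used as a marker of assembled complex I, was at 9.07, 8.80, 8.99 and 8.81. It was thus lower than control with acetate and butyrate (log2 ratios of -0.27 and -0.26), with propionate in between. Ndufa12, another accessory subunit, ran the other way at 7.71, 7.89, 7.79 and 7.94, and was among the 4 highest ratios with butyrate (1.17-fold).

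Complex I also needs assembly factors that are not part of the finished enzyme. Ndufaf2 was at 6.41 in control, 6.36 with acetate, 6.06 with propionate and 6.15 with butyrate, and its 1.28-fold lower value with propionate was the lowest ratio of the 89 in that pool. Ndufaf7, a methyltransferase that modifies a core subunit, was lowest with propionate too (5.95, 5.92, 5.71 and 6.05) and differed 1.27-fold between butyrate and propionate. Ndufaf3 stood at 8.24, 8.06, 8.12 and 8.32, with acetate 1.14-fold below control and butyrate above acetate by 0.26 on the log2 scale. Ndufaf6 was highest with acetate (6.61, 6.84, 6.62 and 6.73). Ndufaf5, below the floor, had log2 ratios of -0.16, -0.093 and -0.0053. Together, the 9 assembly and accessory genes had medians of -0.057, -0.11 and 0.013, with 6, 6 and 4 of them below control.

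Complex II, succinate dehydrogenase, feeds electrons from the TCA cycle and is the member of the chain with only nuclear-encoded subunits. Its 4 genes moved little and never by 1.2-fold between any pair of pools. Sdha, the flavoprotein, was at 11.26, 11.32, 11.17 and 11.29 and Sdhb, the iron-sulfur subunit, at 10.31, 10.24, 10.20 and 10.23. The membrane anchors were at 9.92, 9.99, 9.87 and 9.95 (Sdhc) and at 10.59, 10.65, 10.58 and 10.50 (Sdhd). All 4 lay below control with propionate, by log2 ratios of -0.012 to -0.11, and below acetate in both other acid pools. Of all genes at or above the floor, 60.8% lay below control with propionate, 58.3% below acetate with propionate and 47.6% below acetate with butyrate.

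Complex III passes electrons from ubiquinol to cytochrome c. The Rieske iron-sulfur protein Uqcrfs1 was the only gene among the 4 highest ratios of each of the 3 acids against the shared control. It stood at 7.87 in control and at 8.13, 8.07 and 8.07 with acetate, propionate and butyrate, with log2 ratios to control of 0.26, 0.21 and 0.21, while the 3 acid pools lay within 1.04-fold of one another. Uqcr11, a small subunit, was at 10.41, 10.36, 10.54 and 10.23, high with propionate and low with butyrate (1.24-fold between these pools). Uqcrq was lower with acetate alone (10.93, 10.76, 10.93 and 10.93). Uqcrh had the highest ratio of the group with butyrate, 0.25, and Cycs, which encodes cytochrome c, stood at 0.19, but these values rest on single probe sets that are described with the probe sets below. The 9 genes had medians of 0.043, -0.0050 and 0.049.

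The ATP synthase had the lowest median range of the complexes as listed, 0.11 over its 17 genes, which ranged from 0.019 to 0.26. The median of complex IV, 0.13, includes its isoforms of muscle and other tissues. Without these its subunits ranged from 0.055 (Cox6b1) to 0.18 (Cox5a), so the order depends on the isoforms. Medians against control were 0.022, -0.019 and 0.030. Its widest gene was Atp5e, the epsilon subunit of the central stalk, at 8.96, 8.98, 8.87 and 8.72, lowest with butyrate, 1.18-fold below control. Atp5k, the e subunit of the membrane part, was among the 4 lowest ratios with propionate (7.01, 6.95, 6.87 and 7.04; 1.10-fold below control).

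**Figure D3:**
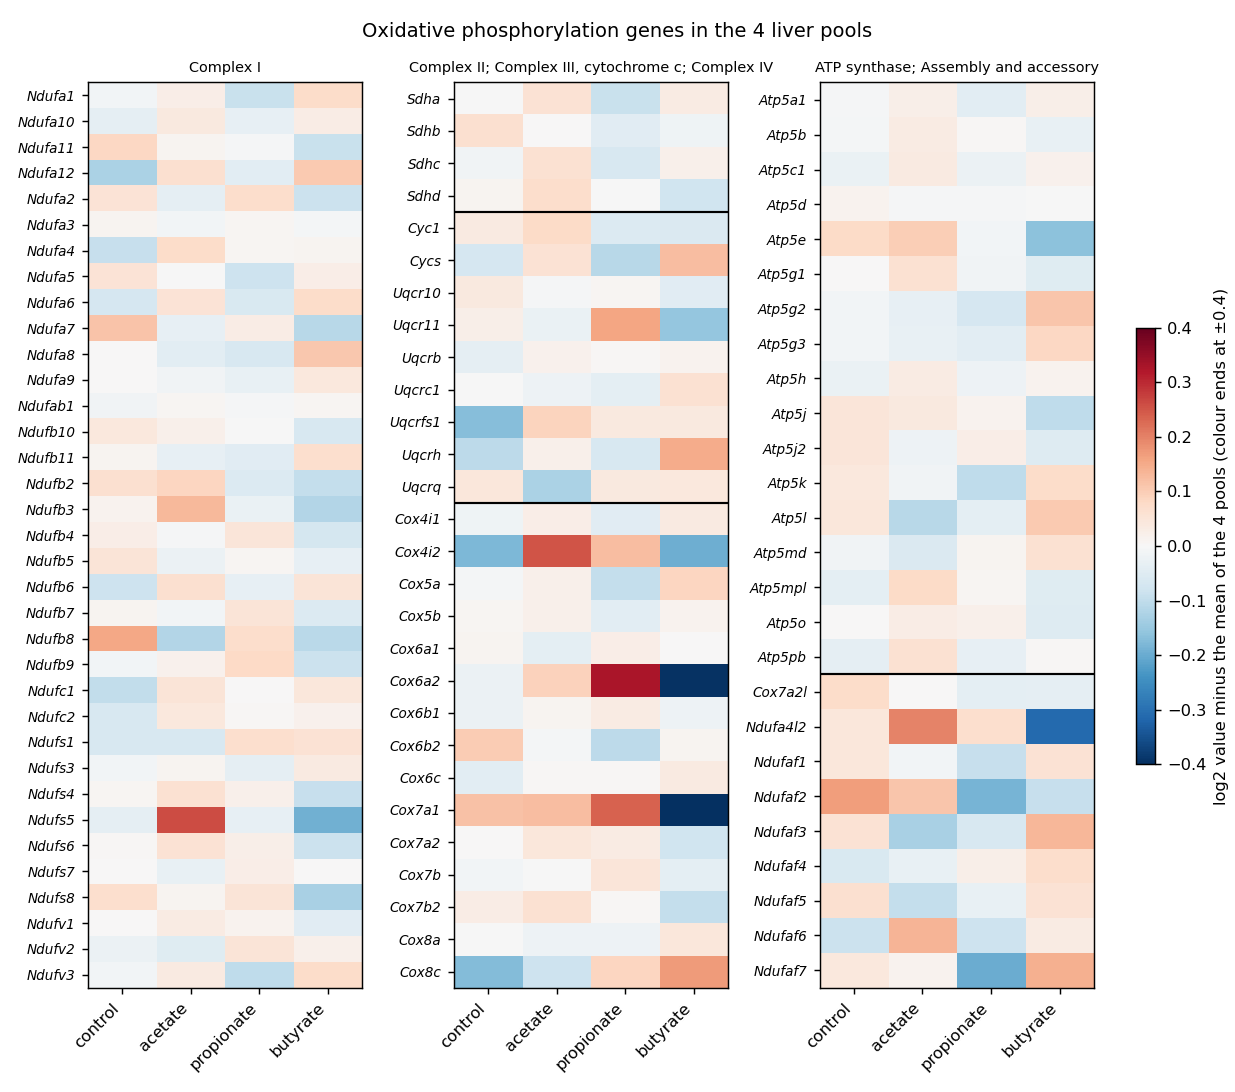
Each of the 89 genes (rows, by complex) in the 4 pools (columns), as the log2 value minus the gene's mean over the pools; the colour scale ends at 0.4 on either side. Most rows are pale, and the darkest cells are Cox7a1, Cox6a2 and Ndufa4l2 with butyrate, all low, and Cox6a2 with propionate, high.

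Complex IV, cytochrome c oxidase, held the genes that differed most. Its 15 subunits had medians of 0.032, 0.031 and -0.0081 with acetate, propionate and butyrate, and the spread came from the isoforms. Cox7a1, the heart and muscle form of subunit 7a, was at 6.49 in control, 6.50 with acetate, 6.62 with propionate and 5.90 with butyrate. The butyrate pool was thus low by itself, 1.51-fold below control, 1.52-fold below acetate and 1.64-fold below propionate. Cox6a2, the heart and muscle form of subunit 6a, was at 6.16, 6.27, 6.51 and 5.79, so that butyrate was again the low pool, 1.29-fold below control, and propionate the high pool, 1.28-fold above it, with 1.65-fold between them.

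The broadly expressed partners of these isoforms did not differ in that way. Cox7a2 was at 10.20, 10.25, 10.23 and 10.12, and Cox6a1 at 8.66, 8.61, 8.68 and 8.65. The log2 ratio of butyrate to control was 0.51 lower for Cox7a1 than for Cox7a2 (difference -0.51) and 0.36 lower for Cox6a2 than for Cox6a1 (-0.36). The other partners were equally flat: Cox4i1, Cox6b1, Cox7b and Cox8a had log2 ratios between -0.028 and 0.059 with every acid. Ndufa4, counted above with complex I by its name and now known as a subunit of complex IV, stood at 10.39, 10.55, 10.49 and 10.49.

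Cox8b, which the name rule leaves out, has the same tissue distribution and differed more. It was at 6.24, 6.22, 6.20 and 4.82, with butyrate alone low and 2.69-fold below control, while its partner Cox8a stood at 11.04, 11.02, 11.02 and 11.08. Outside complex IV, the mitochondrial ADP/ATP carrier has a heart and muscle form, Slc25a4, and a form used widely, Slc25a5. Slc25a4 was at 6.86, 6.94, 6.96 and 6.27, 1.51-fold lower with butyrate than in control. Slc25a5 was at 11.87, 11.90, 11.89 and 11.86.

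**Figure D4:**
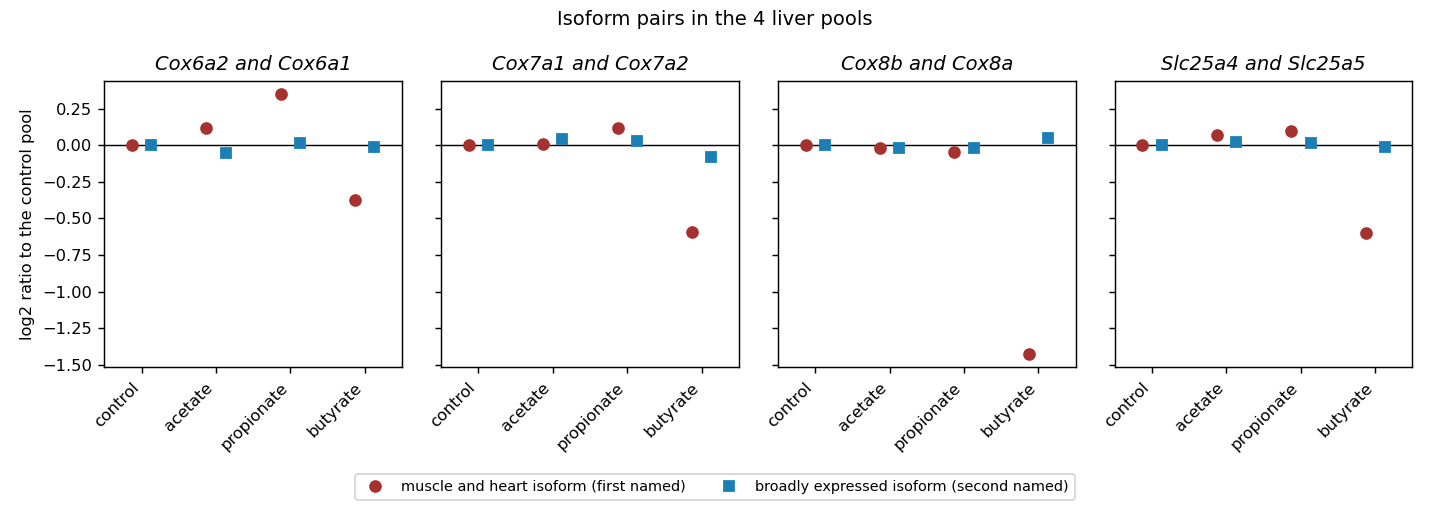
Log2 ratio to the control pool (vertical axis) in each of the 4 pools for 3 isoform pairs of complex IV and the pair of ADP/ATP carriers; red circles are the heart and muscle forms and blue squares the broadly expressed forms, the control being 0 by construction. With butyrate the red circles lie at -0.37, -0.59, -1.43 and -0.60, and the blue squares between -0.083 and 0.048.

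Skeletal muscle markers, known from earlier results of these data to be low in the butyrate pool, were low there as these isoforms were. All 20 markers, among which Cox8b is counted, lay below control with butyrate, and 19 of them passed 1.5-fold; their ratios had a median of -1.45, led by Myl1 (-3.15) and Mb (-2.98). Their summed level was 11.14, 11.09, 11.33 and 9.17 on the log2 scale, and 15 of the 20 had mean levels at or above the floor. With propionate, where Cox6a2 was high, 16 of the 20 lay above control (median 0.18), led by Tnnt3 (0.42) and Myh1 (0.35). With acetate 6 of 20 did so (median -0.077), with Mylpf at 0.45 and Myh1 at 0.43. Cox6a2, Cox7a1 and Slc25a4 lay above control with acetate and propionate, and Cox8b below it (-0.021 and -0.044). Heart markers were near background: 2 of 7 measured markers were at or above the floor, and their summed level was 7.75, 7.78, 7.76 and 7.64. The 7 heart markers had median ratios of 0.033, -0.026 and -0.054, with 4, 2 and 2 of them above control. Largest in size were Tnnt2 with acetate (0.19), Myl7 with propionate (-0.32) and Actc1 with butyrate (-0.41). Actc1, a gene of heart and also of muscle, had ratios of -0.18, 0.30 and -0.41. The part of muscle RNA in the values of Cox6a2, Cox7a1, Cox8b and Slc25a4 was not tested.

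Brown adipocytes also use Cox7a1 and Cox8b. Of 6 markers measured, Cox8b among them, 3 were at or above the floor; 2, 2 and 1 lay above control with acetate, propionate and butyrate, and their summed level was 10.24, 10.51, 10.28 and 10.05. Ucp1 was below the floor in every pool, where a ratio compares values near background. It stood at 4.40, 3.46, 2.92 and 3.28, below control in all 3 acid pools. Cidea, also below the floor, stood at -0.39, -0.32 and -0.41 against control. Elovl3, which hepatocytes also express, was at 0.25, 0.051 and -0.25, and Ppargc1a was above control in each acid pool. White adipocyte markers were below control with butyrate in 7 of 7 cases (median -0.21, led by Retn at -1.09 and Adipoq at -0.74). Kupffer cell markers were higher with butyrate in 11 of 11 cases (median 0.57, led by Marco and Adgre1), red cell markers in 4 of 4 (0.74, led by Car1 and Slc4a1) and intestinal markers in 6 of 6 (0.36, led by Muc2 and Lypd8), and pancreatic markers were lower in 6 of 6 (-0.32, led by Cpa1 and Cel). Pancreatic markers were lower with acetate and propionate as well (medians -0.83 and -0.62), and 10 of 11 Kupffer cell markers exceeded control in the propionate pool (0.29). The share of any of these cells in the values was not tested.

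The isoforms of other tissues gave low signals, all of them below the floor. Cox4i2, the form of subunit 4 known from lung and smooth muscle and raised by low oxygen, was at 4.19 in control, 4.62 with acetate, 4.49 with propionate and 4.17 with butyrate. Ndufa4l2, a paralog of Ndufa4 that is likewise induced by low oxygen, was at 4.38, 4.53, 4.40 and 4.02. Cox8c was at 3.78, 3.88, 4.05 and 4.13. The testis forms Cox6b2 (4.72, 4.61, 4.51 and 4.63) and Cox7b2 (2.60, 2.63, 2.58 and 2.48) stayed within 1.2-fold. Cox4i2 with acetate (0.43) and Cox8c with butyrate (0.34) had the highest ratios of the 89 genes in those pools, from values near background.

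Acetate, propionate and butyrate differ by a single carbon of chain length at each step and were infused at the same molar rate, so the 3 pairs of acid pools were compared directly. Propionate against acetate gave 2 of 89 genes past 1.2-fold, against 9.58% of all genes, and none past 1.5-fold, against 0.595%. Both were lower with propionate, Ndufaf2 and Ndufs5 at -0.29 each. At or above the floor, 0 of 83 members were higher and 2 lower past 1.2-fold, against 305 and 345 of 9410 genes. The highest ratios were those of Cox6a2 (0.23) and Ndufb8 (0.19). Small ratios leaned to the acetate side: 61 of 89 genes (68.5%) were lower with propionate, against 52.9% of all genes, and 57 of 83 (68.7%) against 58.3% at or above the floor, with a median of -0.034. All 4 complex II genes and 13 of 17 ATP synthase genes were on that side.

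Butyrate against acetate gave 7 genes past 1.2-fold, against 14.6% of all genes, and Cox7a1 alone past 1.5-fold, against 1.87%. Lower with butyrate were Cox7a1 (-0.60), Ndufa4l2 (-0.51), Cox6a2 (-0.49), Ndufs5 (-0.45), Cox4i2 (-0.45) and Atp5e (-0.26). Higher were Ndufaf3 (0.26) and, just under 1.2-fold, Cox8c (0.25). At or above the floor, 1 of 83 members was higher and 4 lower past 1.2-fold, against 685 and 588 of 9410 genes. Butyrate against propionate gave 6 genes past 1.2-fold, against 13.6%, and Cox6a2 and Cox7a1 past 1.5-fold, against 1.27%. Ndufaf7 (0.34) and Cycs (0.24) were highest there. The Cycs value rests on a probe set below the floor, and with the probe set of the highest mean it was -0.022. At or above the floor, 1 of 83 genes was higher with butyrate than with propionate and 3 were lower past 1.2-fold, against 620 and 386 of 9410. The medians of these comparisons, which share arrays with the others, were -0.017 and 0.0048. With 1 array per acid no interval of any difference could be given.

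Looking at which pool was extreme, acetate held the highest value for 32 of the 89 genes (36.0%) and the lowest for 11 (12.4%), against 25.9% and 22.6% of all genes. Butyrate held the highest for 26 (29.2%, against 26.2% of all genes) and the lowest for 33 (37.1%, against 26.8%). Propionate held the highest for 13 (14.6%, against 22.6%) and the lowest for 25 (28.1%, against 26.6%). Control held the highest for 18 (20.2%, against 25.3%) and the lowest for 20 (22.5%, against 24.01%). For 27 of the 89 genes the whole range over the pools was below 0.1 on the log2 scale.

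Of the 24 genes with more than 1 probe set, 11 had probe sets whose ratios to control lay within 0.1 of one another with every acid, and 6 had a gap of at least 0.2 with some acid. Short probe sequences can match processed pseudogenes, of which subunit genes have many, so the member of such a group is uncertain. Atp5l had 6 probe sets that moved alike, with acetate ratios of -0.12 to -0.20. Uqcrh had a pair that did not: a probe set above the floor was at 10.37, 10.35, 10.40 and 10.38, and a probe set with a mean below it at 5.29, 5.56, 5.35 and 5.79. Of the 3 for Cycs, the probe set below the floor had a ratio of 0.42 with butyrate and the others 0.13 and 0.025. For Cox6a1 a pair above the floor disagreed in sign with every acid (0.12 and -0.22 with acetate). For Uqcr11 the pair agreed in sign and differed in size with butyrate (-0.29 and -0.060), and Ndufb5 stood at 0.12 and, from a probe set below the floor, -0.29. Cox7a1 and Cox6a2 have 1 probe set each, so the same check could not be made for them.

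**Figure D5:**
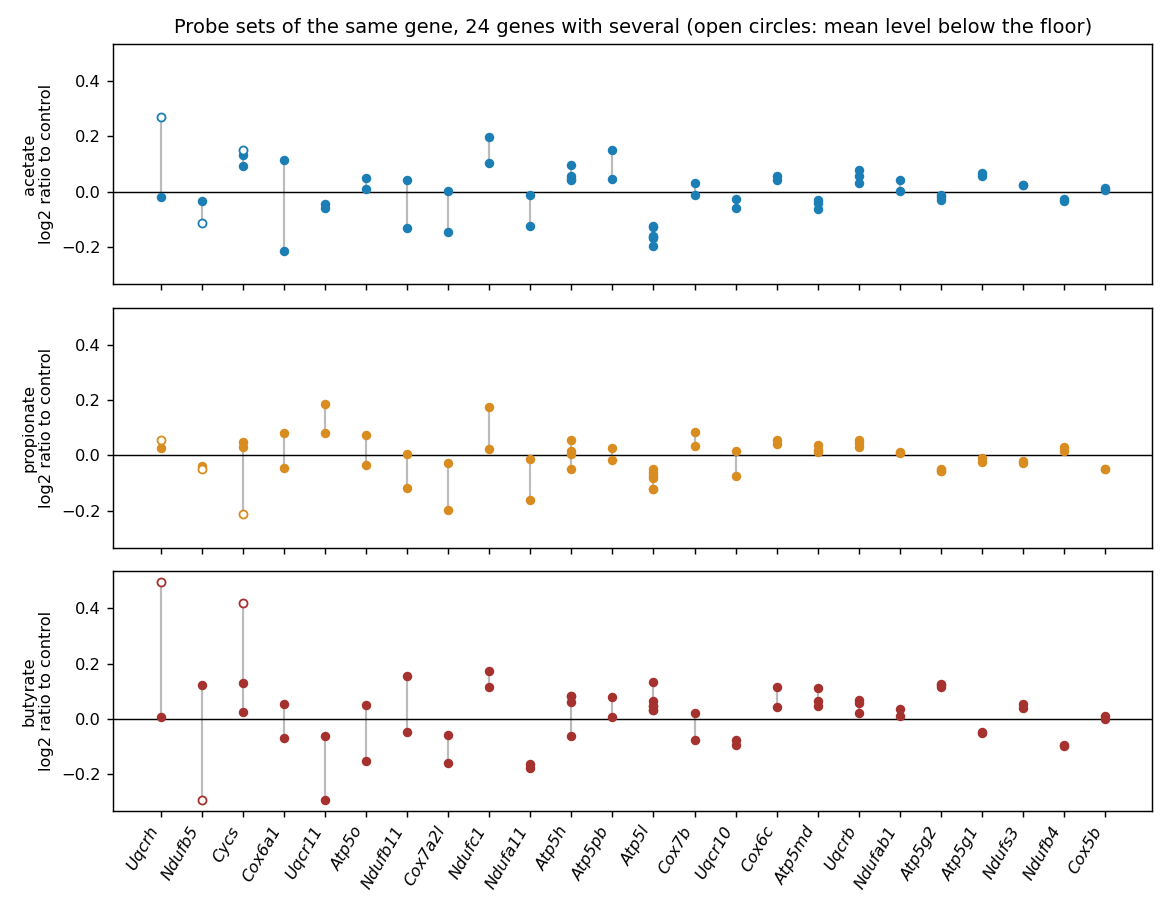
Log2 ratio to control (vertical axis) of each probe set of the 24 genes with several, in the acetate, propionate and butyrate pools; grey lines join the probe sets of a gene, and open circles mark probe sets with a mean level below the floor. Genes are ordered by their widest gap, from Uqcrh (0.49 with butyrate) to Cox5b (0.013).

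Genes outside the name rule that build or drive these complexes were counted in the same way, against 12.2%, 13.3% and 11.9% of all genes past 1.2-fold with acetate, propionate and butyrate. Of 37 measured assembly factors of other names, 3, 1 and 4 passed 1.2-fold and none passed 1.5-fold; the butyrate count is near the share over all genes. Their median log2 ratios were -0.041, -0.045 and 0.015. Lyrm7, which helps to insert the Rieske protein Uqcrfs1 into complex III, was at 5.46 in control and at 5.02, 5.12 and 4.91 in the acid pools, below the floor throughout and lower in each. Cox17, a copper chaperone for complex IV and also below the floor, had ratios of 0.28, 0.077 and 0.36. Atpaf1, an assembly factor of the ATP synthase, was the next after Lyrm7 with propionate (-0.23).

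Of 12 measured regulators of mitochondrial biogenesis, 2, 1 and 0 passed 1.2-fold, and their medians were -0.041, -0.069 and -0.077. Ppargc1a, the coactivator known to raise many oxidative phosphorylation genes, was at 8.16, 8.67, 8.29 and 8.38, 1.42-fold above control with acetate. Its relative Ppargc1b was at 6.64, 6.35, 6.29 and 6.56. Nrf1, the transcription factor whose sites many subunit promoters carry, stood at -0.16, -0.17 and -0.11 against control, Tfb2m at 0.23 with butyrate and Perm1, below the floor, at -0.26.

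Of 13 measured genes for electron entry, carriers and porins, 1, 0 and 2 passed 1.2-fold, and 1 passed 1.5-fold with butyrate, against 1.34% of all genes; the medians were 0.051, -0.0056 and 0.046. Those past 1.2-fold were Slc25a31, a testis carrier below the floor (0.32 with acetate), and, with butyrate, Slc25a4 and the uncoupling protein Ucp3 (-0.55, below the floor), which is typical of muscle. Etfdh, the entry point of electrons from fatty acid oxidation, had ratios of 0.13, 0.041 and 0.16, and the porin Vdac2 -0.093 with propionate. Of 26 listed names of mitochondrially encoded subunits, none was found among the measured genes, so these subunits were not analysed here.

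Promoter letters were read because subunit genes are known to share sites for a few factors. RefSeq promoter windows (build GRCm38.p6, 250 bases before to 50 after the start) were matched by symbol for 73 of the 89 genes, in 78 windows; the genes not matched were Atp5a1, Atp5mpl, Cox4i1, Cox4i2, Cox6a2, Cox6c, Cox8c, Cyc1, Ndufa2, Ndufa4l2, Ndufaf6, Ndufb9, Ndufs1, Sdhc, Uqcrb and Uqcrq. On either strand, the NRF1 letters GCATGCGC were in 13 windows (16.7%), against 2.71% of all 32851 windows and 5.30% of those of genes at or above the floor. The ETS letters CCGGAAG, as in sites of GABP, were in 18 windows (23.1%), against 8.86% and 17.7%, and the YY1 letters AAGATGGC in 10 (12.8%), against 2.75% and 4.61%. The ERR letters TCAAGGTCA were in 2 (2.56%, against 0.423% and 0.257%), and either of a pair of MEF2 sites in none, against 0.274% of all windows. Any of the first 3 was in 44.9% of member windows and 13.3% of all, and the median GC content was 58.5% and 52.7%. This combined share was not taken over genes at or above the floor, whose windows held each of the 3 more often than all windows did. NRF1 and ETS letters stood together in the windows of Atp5k, Atp5l, Cox6a1, Sdhb and Uqcr11.

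The 250 bases before the start are printed for the isoform pair Cox7a1 and Cox7a2, whose values parted with butyrate, and for Cox6a1, the broadly expressed partner of Cox6a2, as an example with both NRF1 and ETS letters. They run 5′ to 3′ along the gene, and capitals mark letters of the 5 motifs above.
Cox7a1, chr7:30183921-30184170, plus strand: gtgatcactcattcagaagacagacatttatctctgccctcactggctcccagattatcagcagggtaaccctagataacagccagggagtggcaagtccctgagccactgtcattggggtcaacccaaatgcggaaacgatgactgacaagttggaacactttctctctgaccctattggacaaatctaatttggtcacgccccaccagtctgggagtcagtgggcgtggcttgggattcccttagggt
Cox7a2, chr9:79759854-79760103, minus strand: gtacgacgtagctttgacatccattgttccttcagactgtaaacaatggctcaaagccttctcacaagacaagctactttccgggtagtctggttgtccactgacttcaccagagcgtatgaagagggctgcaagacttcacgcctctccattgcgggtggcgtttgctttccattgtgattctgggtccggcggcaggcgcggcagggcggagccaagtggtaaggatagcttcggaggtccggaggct
Cox6a1, chr5:115348959-115349208, minus strand: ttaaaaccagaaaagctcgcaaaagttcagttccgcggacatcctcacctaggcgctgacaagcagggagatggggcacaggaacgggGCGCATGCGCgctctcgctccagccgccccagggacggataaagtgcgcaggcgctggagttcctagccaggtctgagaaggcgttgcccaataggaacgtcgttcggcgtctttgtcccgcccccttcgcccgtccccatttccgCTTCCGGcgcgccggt
In Cox6a1 the NRF1 letters occur on both strands as overlapping matches that begin 162 and 160 bases before the start, and the ETS letters, read on the opposite strand, begin 16 bases before it. Neither the Cox7a1 nor the Cox7a2 stretch holds any of the 5 motifs, which says only that these letters are not in this window. The array measured transcript levels and not binding at these promoters.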

How the data were processed

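The deposited table gives a log2 expression level for each probe set on 1 array per pool; RMA is named in the submitters' processing notes, with version, settings and build not given in the sources used here. RMA makes the arrays' distributions alike (medians 5.11 to 5.12), so a shift of all genes in a pool could not be seen. Per the labels' protocols, equal RNA (500 ng per mouse) was pooled within each group. Symbols came from GEO's annotation of the platform: 21218 had 1 symbol, 1881 several and 12457 none. Those with 1 symbol were averaged per symbol (Python 3.11.15, pandas 2.3.3); 9 probe sets with several symbols that include a name under the rule were left out. Ratios are differences of log2 values between 2 arrays, in 6 comparisons. A gene was counted at 1.2-fold and at 1.5-fold, over genes of any level. With 1 array per group no test was possible, and the number of arrays limits the precision. The counting code was checked on simulated data with known folds away from the steps, which does not bear on genes close to a step or on array noise. Alternatives were the probe set with the highest mean, cyclic loess (limma 3.58.1), centring on the median, the level floor, subunits without isoforms and assembly factors, and the mean of the other 3 pools as base. Named genes were, for each acid against control, the 4 at either end of the ratios, the 2 at either end for each acid pair, all past 1.5-fold, the widest range per complex, the isoforms with their partners and, from each list outside the rule and each marker list, the 2 largest ratios per acid. Genes, lists and rule were chosen with earlier results of these data known.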

Additional observations from a re-analysis of the deposited data

How the results depend on the processing

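Cyclic loess and centring on the median moved no count or median of the oxidative phosphorylation genes beyond the limits set, 1.5 times for a count and 0.05 on the log2 scale for a median. Leaving out isoforms and assembly factors changed the counts most. Past 1.2-fold there were then 0 genes for propionate and 0 for butyrate against control, 1 for propionate against acetate, 2 for butyrate against acetate and 1 for butyrate against propionate, and past 1.5-fold 0 in each of the 3 butyrate comparisons; fewer genes entered by construction. At or above the floor, 2 genes passed 1.2-fold with butyrate. With the probe set of the highest mean, the complex III median with acetate was -0.018. With the other 3 pools' mean as base, the difference between Cox6a2 and Cox6a1 was 0.40 with propionate and -0.53 with butyrate. That between Cox7a1 and Cox7a2 was 0.10 with acetate and 0.27 with propionate. For acetate and propionate that mean includes the low butyrate pool, and the cause was not tested. Of the single ratios of the named members, 49 moved with this base, which also holds other acid pools, and 41 did not. Uqcrfs1 went to 0.12, 0.051 and 0.053 with acetate, propionate and butyrate. Ndufb8 went to -0.16, 0.092 and -0.14, so that its sign turned with propionate. Over all 24 genes with several probe sets, taking the probe set of the highest mean moved 23 of 72 ratios to control, in 12 genes, by 0.05 or more, and 10 of these ratios, in 7 genes, turned sign. The ratio with butyrate went to 0.0078 for Uqcrh, 0.025 for Cycs, -0.060 for Uqcr11, 0.15 for Ndufb11, 0.050 for Atp5o and 0.12 for Ndufb5, the last 2 turning from below to above control. Cox6a1, Cox7a2l and Ndufb11 turned to above control with acetate and Uqcrh to below; this comparison of all 24 genes was added after seeing the data. No paired analysis was possible because each group has 1 array.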
